A study of Mus musculus with 2 samples.

Results

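In embryonic mouse midbrain, 10 genes of the neural BAF chromatin remodelling complexes were followed. The 10 members are Smarca4, Smarca2, Smarcc1, Smarcc2, Actl6a, Actl6b, Phf10, Dpf1, Dpf3 and Ss18l1, taken by name out of 43346 Ensembl genes in the tables. Their Ensembl identifiers were matched to GENCODE symbols, and all 10 were found. The progenitor subunits compared here are Actl6a, Phf10 and Dpf2, and the neuronal subunits are Actl6b, Dpf1, Dpf3 and Ss18l1. Dpf2 is set beside the members because the comparison names it, and Ss18 because it is the progenitor paralogue of Ss18l1.

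Total RNA was sequenced from midbrain of B6NCrl mice at day 14.5 of embryonic development, with 2 libraries in 1 group. The labels name no treatment and no genetic change. The labels describe 1 pup per library, taken on different days, yet also give the sex as pooled. They are called embryo 1 and embryo 2. The tables held 32716141 expected counts for embryo 1 and 30185472 for embryo 2. All 8 midbrain markers were detected, with Otx2 (99.9 and 76.3 TPM in embryos 1 and 2) and Gata3 (97.0 and 69.2 TPM) highest and Lmx1b (1.38 and 1.82 TPM) lowest. Of 6 forebrain and hindbrain markers 0 were detected. Hoxb3 and Hoxb4 were listed at 0, and Emx1 was highest at 0.910 and 1.24 TPM. TPM is a relative level per transcript length, and detected means at least 1 TPM in both libraries. With 1 group of 2 libraries no test between conditions was possible, so every comparison below is a description.

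BAF complexes use the energy of ATP to move or evict nucleosomes and so open DNA to other factors. Each complex carries 1 of the paralogous ATPases SMARCA4 and SMARCA2, a scaffold built on SMARCC1 and SMARCC2, and a set of smaller subunits that can be exchanged. In mouse neural development, dividing progenitors use ACTL6A, PHF10 or DPF2, and SS18. When cells leave the cell cycle and become neurons, ACTL6B, DPF1 or DPF3, and SS18L1 take the same places. In the known circuit, the repressor REST holds down the microRNAs miR-9 and miR-124 in progenitors, and once released these microRNAs act on the Actl6a 3′ UTR.

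The microRNA of this circuit present in the RefSeq table is shown because Actl6a is its known target. Both strands of the miR-9 hairpin are made from 3 mouse genes, Mir9-1 on chromosome 3, Mir9-3 on chromosome 7 and Mir9-2 on chromosome 13, with the same mature sequences. Capitals mark the seed, bases 2 to 8 from the 5′ end, and RefSeq's build is GRCm38.p6.
mmu-miR-9-3p: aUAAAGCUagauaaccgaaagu
mmu-miR-9-5p: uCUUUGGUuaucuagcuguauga

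The reverse complement of the miR-9-3p seed, AGCTTTA, was searched on the sense strand in 1 annotated 3′ UTR, the longest, of each of the 10 members, Dpf2, Ss18 and Rest. These ran from 90 bases in Phf10 and 196 in Actl6b to 3448 in Rest, so a short one had fewer places for a match. That of Dpf3 belongs to a transcript at 0.250 and 0 TPM in embryos 1 and 2. It was present in Actl6a, Smarcc1 and Smarca2, and not in the 4 neuronal subunits, Phf10, Dpf2, Ss18, Smarca4, Smarcc2 or Rest. Of 12703 detected genes with a 3′ UTR, 13.4% held the same 7 letters. The 3 genes with a match are shown with the matching letters in capitals, all on the plus strand of GRCm38. The Actl6a match begins at base 38 of a 3′ UTR of 371 bases, and the window shown, with 8 flanking bases on each side, is chr3:32726632-32726654. The windows shown are chr9:110238605-110238627 and chr9:110239433-110239455 for Smarcc1 and, for Smarca2, chr19:26777494-26777516.
Actl6a: acgtctgtAGCTTTAgtacactc
Smarcc1 first site: aagagcacAGCTTTAcaacaagc
Smarcc1 second site: tattttaaAGCTTTAtgtatgag
Smarca2: ctagaactAGCTTTAgggtagtg

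The reverse complement of the miR-9-5p seed, ACCAAAG, was in the 3′ UTR of Rest and in none of the 10 members, Dpf2 or Ss18, and 14.2% of the same 12703 genes held it. The window shown around the Rest match is chr5:77286168-77286190 on the plus strand.
Rest: tgaggcaaACCAAAGgtatattt

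All 10 members were detected, against 59.5% of protein-coding genes and 33.6% of all Ensembl genes. Their mean levels ran from 19.0 TPM for Phf10 to 201 TPM for Actl6b, with a median of 93.7 TPM, while the median over all detected protein-coding genes was 20.3 TPM. In descending order of mean TPM the members were Actl6b, Dpf1, Smarca4, Smarca2, Smarcc2, Actl6a, Smarcc1, Ss18l1, Dpf3 and Phf10. The values of the 2 embryos kept Actl6b above Dpf1 and Dpf1 above Smarca4. Within each embryo Smarca4 also lay above Smarcc2, Actl6a above Smarcc1 and Dpf3 above Phf10. The order of Smarca2 and Smarcc2, and that of Smarcc1 and Ss18l1, turned between the embryos, so these neighbours did not differ beyond their spread.

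**Figure D1:**
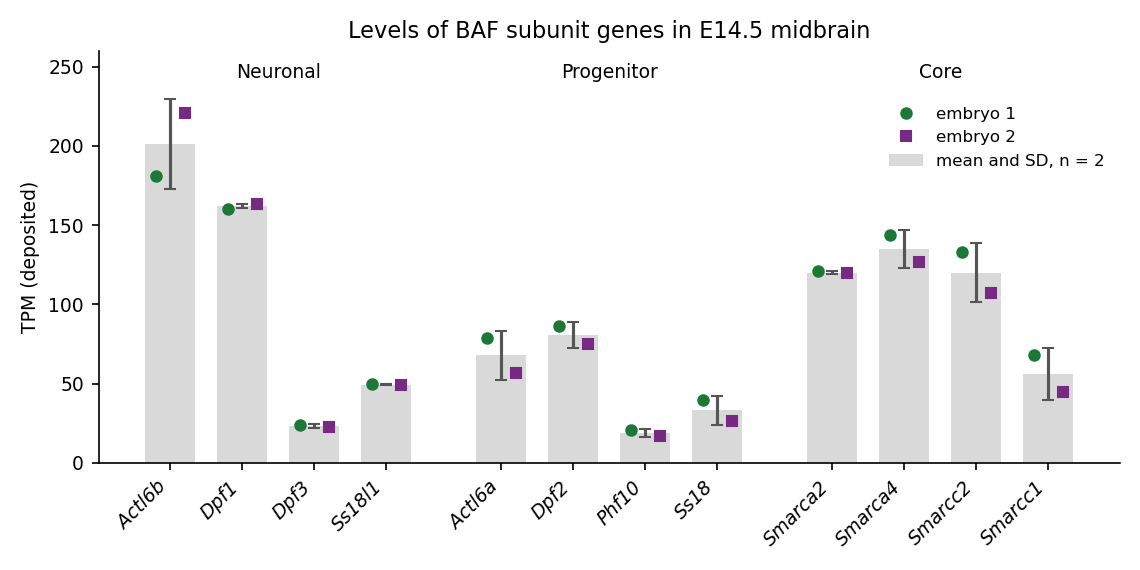
TPM (y axis) of the 10 members, Dpf2 and Ss18, grouped as neuronal, progenitor and core subunits. Bars are means with the SD over 2 embryos, circles are embryo 1 and squares are embryo 2, and Actl6b at 201 ± 28.3 TPM is the highest bar.

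Actl6b (chr5:137553517-137569582, plus strand) encodes the neuron-specific actin-like subunit, and positions here and below are of the whole gene on GRCm38. It stood at 181 TPM in embryo 1 and 221 TPM in embryo 2 (201 ± 28.3, mean and SD over n = 2, a form used for every level below), above 96.8% of protein-coding genes. Dpf1 (chr7:29303951-29318243, plus strand), a double PHD finger protein that reads histone tails, had 160 and 163 TPM (162 ± 1.53) in embryos 1 and 2. Both genes were thus high in each embryo, and Dpf1 had nearly the same TPM in both. Dpf3 (chr12:83213745-83487716, minus strand), its paralogue, had 23.9 and 22.5 TPM (23.2 ± 0.983) in embryos 1 and 2. Ss18l1 (chr2:180042509-180070201, plus strand), also called CREST, is a calcium-responsive coactivator needed for dendrite growth in mouse cortical neurons, and had 49.5 and 49.0 TPM (49.3 ± 0.304). The neuronal group therefore spanned levels from 23.2 TPM for Dpf3 to 201 TPM for Actl6b.

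Actl6a (chr3:32706298-32726973, plus strand), the progenitor counterpart of Actl6b, had 78.9 TPM in embryo 1 and 56.8 TPM in embryo 2 (67.8 ± 15.6). Phf10 (chr17:14945009-14961273, minus strand), whose protein carries paired PHD fingers, had 20.8 and 17.2 TPM (19.0 ± 2.56) and was the lowest member. Dpf2 (chr19:5896516-5913010, minus strand), the widely expressed paralogue of Dpf1, had 86.5 and 75.0 TPM (80.7 ± 8.08). Ss18, the SS18-family subunit of progenitors, had 39.7 and 26.6 TPM (33.1 ± 9.29). All of these progenitor genes had the higher TPM in embryo 1, as did the neuronal Dpf3 and Ss18l1 but not Actl6b or Dpf1. The median log2 ratio of deposited TPM over all genes tested was 0.13 toward embryo 1.

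Within each embryo the neuronal paralogue had the higher TPM in 5 of 6 pairs, the exception being Dpf3 against Dpf2. Actl6b exceeded Actl6a 2.29-fold in embryo 1 and 3.88-fold in embryo 2 (mean log2 ratio 1.58 ± 0.54, n = 2), and made up 69.6% and 79.5% of the summed TPM of both genes. Dpf1 exceeded Phf10 7.72-fold and 9.47-fold (log2 3.10 ± 0.21) and Dpf2 1.86-fold and 2.17-fold (log2 1.00 ± 0.16) in embryos 1 and 2. Among the 4 PHD finger genes, Dpf1 held 55.0% and 58.6% of their summed TPM, Dpf3 8.21% and 8.13%, Dpf2 29.6% and 27.1%, and Phf10 7.13% and 6.19%. Dpf1 was therefore the leading gene of this family in both embryos.

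Dpf3 was at 0.277 and 0.300 of the Dpf2 level in embryos 1 and 2 (log2 -1.79 ± 0.08) and at 1.15 and 1.31 times the Phf10 level (log2 0.30 ± 0.13, or 2.35 on protein-coding transcripts alone). Ss18l1 exceeded Ss18 1.25-fold and 1.85-fold (log2 0.60 ± 0.40), with log2 values of 0.32 in embryo 1 and 0.88 in embryo 2. Summed over the groups, the 4 neuronal subunits had 414 TPM and the 3 progenitor subunits 186 TPM in embryo 1, and 455 TPM and 149 TPM in embryo 2. The summed ratio was 2.23 in embryo 1 and 3.05 in embryo 2 (1.38 ± 0.32 in log2). The groups differ in number of genes, and with Ss18 added to the progenitor genes the mean log2 ratio was 1.12. These are bulk libraries, in which fewer cells of a type and less RNA per cell cannot be told apart. All 6 neuronal over progenitor ratios, several of which share a gene, were larger in embryo 2.

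**Figure D2:**
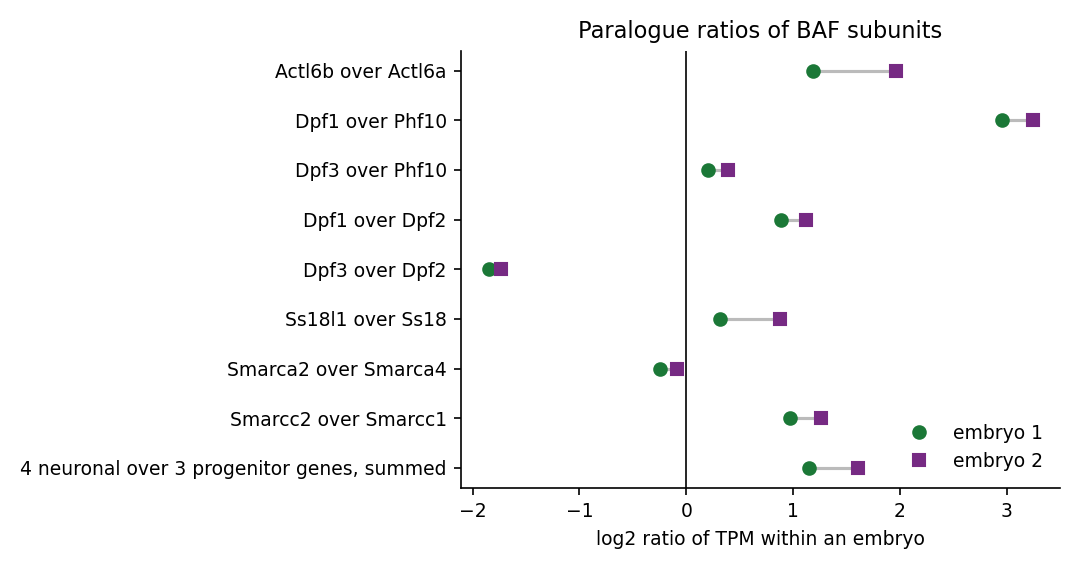
Log2 ratio of TPM within an embryo (x axis) for each paralogue pair and for the summed groups, with circles for embryo 1 and squares for embryo 2. Values right of 0 mean that the first gene named is higher, as for Actl6b over Actl6a at 1.19 in embryo 1 and 1.96 in embryo 2, and Dpf3 over Dpf2 lies on the left.

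Of the core subunits, the ATPases and Smarcc2 lay below Actl6b and Dpf1 and above the other members, and Smarcc1 lay below Actl6a. Smarca2 (chr19:26605050-26778322, plus strand), also called BRM, had 121 and 120 TPM (120 ± 0.997), and Smarca4 (chr9:21616169-21704230, plus strand), also called BRG1, had 144 and 127 TPM (135 ± 11.9) in embryos 1 and 2. Smarca2 was thus at 0.841 and 0.941 of the Smarca4 level (log2 -0.17 ± 0.12), with the lower value in embryo 1. Smarca2 lay above 94.2% of protein-coding genes and Smarca4 above 94.9%.

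Smarcc2 (chr10:128459248-128490482, plus strand) had 133 and 107 TPM (120 ± 18.4) and Smarcc1 (chr9:110117708-110240178, plus strand) had 67.7 and 44.4 TPM (56.1 ± 16.5) in embryos 1 and 2. The proteins are scaffold subunits that pair with each other or with themselves, and in mouse cortex SMARCC2 competes with SMARCC1 for a place in the complex. Smarcc2 exceeded Smarcc1 1.96-fold in embryo 1 and 2.40-fold in embryo 2 (mean log2 ratio 1.12 ± 0.21), and held 66.2% and 70.6% of their summed TPM.

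The near-equal TPM of the ATPase genes did not extend to their full-length transcripts. Smarca2-201, the annotated coding transcript of 5858 bases, was estimated at 18.2 TPM in embryo 1 and 12.9 TPM in embryo 2, which is 15.0% and 10.8% of the TPM of the gene. It held 46.8% and 37.9% of the expected counts of the gene, since a long transcript yields more reads per molecule. The largest TPM share went to Smarca2-215, annotated as a target of nonsense-mediated decay, at 35.3% and 41.3%. The short coding transcripts Smarca2-207 and Smarca2-203 took 19.8% and 12.3% in embryo 1 and 19.3% and 9.40% in embryo 2. In the GENCODE M21 annotation these start 84.2% and 82.7% of the way along the gene, and Smarca2-215 starts 60.9% along it. In all, 12 of 19 annotated Smarca2 transcripts start at or beyond 50% of its span, and together they took 82.3% and 86.3% of its TPM and 47.8% and 56.1% of its expected counts.

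Smarca4 had its TPM in long coding transcripts, 73.5% and 75.6% in Smarca4-204 and 25.0% and 23.4% in Smarca4-202 for embryos 1 and 2. Counting the coding transcripts of at least 5000 bases alone, a comparison added after these values were seen, the mean log2 ratio of Smarca2 over Smarca4 was -3.12, against -0.17 for the whole genes. The transcript values are estimates that divide shared reads among overlapping models, and the start positions come from a later annotation than the counting used. No label gives the strand protocol, and 3 genes overlap a coding gene on the opposite strand: Smarcc1 overlaps Dhx30 (68.3 and 61.7 TPM), Actl6a overlaps Mrpl47 (31.1 and 28.7 TPM) and Phf10 overlaps 1600012H06Rik (20.6 and 13.4 TPM). If the counting did not use strand, reads of such partners could not be told apart where they overlap.

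Coding transcripts of all lengths held 59.4% and 51.1% of Smarca2 TPM in embryos 1 and 2, but were the minor share in Phf10. The coding transcript Phf10-201 had 5.87 TPM in embryo 1 and 3.54 TPM in embryo 2, or 28.2% and 20.6% of the gene. Phf10-203, annotated for nonsense-mediated decay, took 33.8% and 37.5% of TPM and 68.7% and 74.6% of the expected counts. The retained-intron models Phf10-205 (5.06 and 3.61 TPM) and Phf10-204 (2.84 and 3.58 TPM) held the rest. With coding transcripts alone, the mean log2 ratio of Dpf1 over Phf10 was 5.07 in place of 3.10, and that of Dpf3 over Phf10 was 2.35 in place of 0.30.

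**Figure D3:**
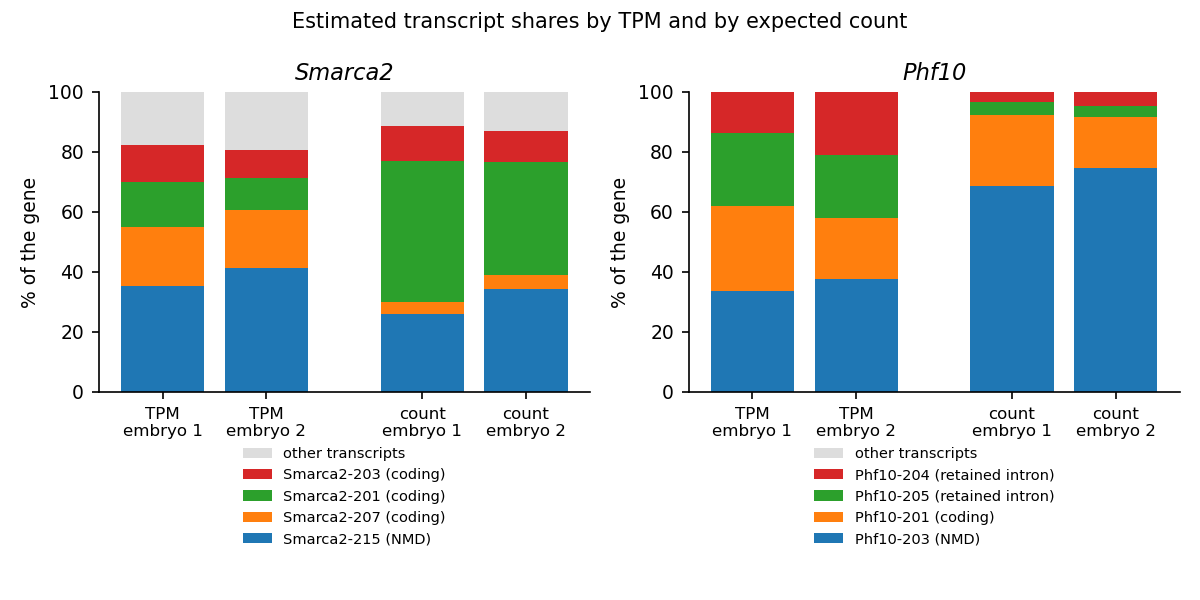
Percent of the gene (y axis) taken by each transcript of Smarca2 and Phf10 with at least 10% of TPM in either embryo, by TPM and by expected count, with embryo 1 left of embryo 2. NMD marks transcripts annotated for nonsense-mediated decay, and Smarca2-201 takes 15.0% of TPM but 46.8% of counts in embryo 1.

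In the other members most TPM lay in coding transcripts. Actl6b-205 held 90.4% and 86.7% of Actl6b, and Actl6a-201 held 74.1% and 62.9% of Actl6a in embryos 1 and 2. A second coding transcript, Actl6a-202, had 4.06 TPM in embryo 1 and 8.41 TPM in embryo 2, and the retained-intron Actl6a-207 had 14.9% and 16.5% of the gene. Dpf1-201 led Dpf1 with 43.6% and 46.6%, ahead of the coding Dpf1-209 (18.7% and 20.5%), Dpf1-207 (13.8% and 13.7%) and Dpf1-202 (11.1% and 9.92%). Dpf1-209 and Dpf1-207 are short models of 438 and 428 bases. By expected count they held 4.62% and 4.94%, and 3.32% and 3.19%, against 70.4% and 72.9% for Dpf1-201. Dpf1-201 alone had 69.9 and 75.7 TPM, below Smarca4-204 at 106 and 96.0 TPM, so the order of Dpf1 above Smarca4 is of whole genes. Dpf3 was divided among 4 coding transcripts, with 28.7% and 36.8% in Dpf3-207, 27.8% and 27.4% in Dpf3-203, 22.7% and 22.9% in Dpf3-202 and 18.6% and 12.8% in Dpf3-206. By expected count Dpf3-207 held 55.2% and 65.3%, and Dpf3-202, of 587 bases, 7.00% and 6.54%. Smarcc2-202 held 66.2% and 68.7% and Smarcc2-201 25.4% and 24.2% of Smarcc2, and Ss18l1 and Smarcc1 had 1 transcript model each. Dpf2 had 63.4% and 60.0% of its TPM in coding transcripts, with Dpf2-202 at 60.1% and 57.8%. Dpf2-201, annotated for nonsense-mediated decay, held 20.4% and 18.2%, and the retained-intron Dpf2-204 held 6.88% and 10.7%. Ss18 was divided among the coding transcripts Ss18-203 (62.5% and 64.2%), Ss18-201 (28.4% and 25.6%) and Ss18-202 (9.09% and 10.2%).

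The embryos were compared on expected counts scaled by TMM, a method that sets the libraries on a common scale through the bulk of the genes. Called here means at least 1.5-fold apart with at least 100 summed counts. Of 14011 genes tested, 8.56% were called higher in embryo 1 and 5.66% higher in embryo 2, and 0 of the 10 members were called in either direction. The median absolute log2 ratio was 0.17 over the members and 0.23 over all genes tested. The exact binomial 95% interval, which covers counting error only, excluded 1 for 8 of 10 members, 4 on each side, and for 66.4% of all genes tested.

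All 4 neuronal subunits had more scaled counts in embryo 2 and all 3 progenitor subunits more in embryo 1. Actl6b had 4791 and 5669 expected counts in embryos 1 and 2, 1.31-fold higher in embryo 2 (interval 1.26 to 1.36). Dpf1 with 4206 and 4387 counts was 1.16-fold higher there (1.11 to 1.21), Dpf3 with 724 and 738 counts 1.13-fold (1.02 to 1.25), and Ss18l1 with 4022 and 3980 counts 1.10-fold (1.05 to 1.15). The side of Dpf3 and Ss18l1 depended on the scale, and that of Dpf1 was near 0 on one of them. On the ratio of deposited TPM the log2 values of embryo 1 over embryo 2 were -0.02 for Dpf1, 0.09 for Dpf3 and 0.01 for Ss18l1. That ratio moved the median of all genes by 0.13, and relative to the median the 3 genes were at -0.15, -0.04 and -0.12. Actl6b was at -0.29 on that scale and at -0.39 on scaled counts.

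Among the progenitor genes, Actl6a with 2560 and 1723 expected counts in embryos 1 and 2 was 1.34-fold higher in embryo 1 (interval 1.26 to 1.43). Dpf2 with 3392 and 2823 counts was 1.08-fold higher (1.03 to 1.14) and Phf10 with 744 and 628 counts 1.07-fold (0.960 to 1.19), an interval that holds 1. Ss18 was 1.35-fold higher in embryo 1 (1.26 to 1.44). The core scaffold gene Smarcc1 with 7227 and 4732 counts was 1.38-fold higher in embryo 1 (1.33 to 1.43), and Smarcc2 with 11644 and 9335 counts 1.13-fold (1.10 to 1.16). The ATPases were nearest to 1, with Smarca2 (4286 and 3749 counts) at 1.03 (0.987 to 1.08) and Smarca4 (15226 and 13394 counts) at 1.03 (1.00 to 1.05). Each of these 8 genes was above 1 on every scaling tried. The library total, DESeq2 size factors and spike-in total move all genes alike toward embryo 1, so they could not turn this side. On the ratio of deposited TPM, which also moved the median of all genes that way, Smarca2 was at 0.02 in log2. That is -0.11 relative to the median of all genes.

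**Figure D4:**
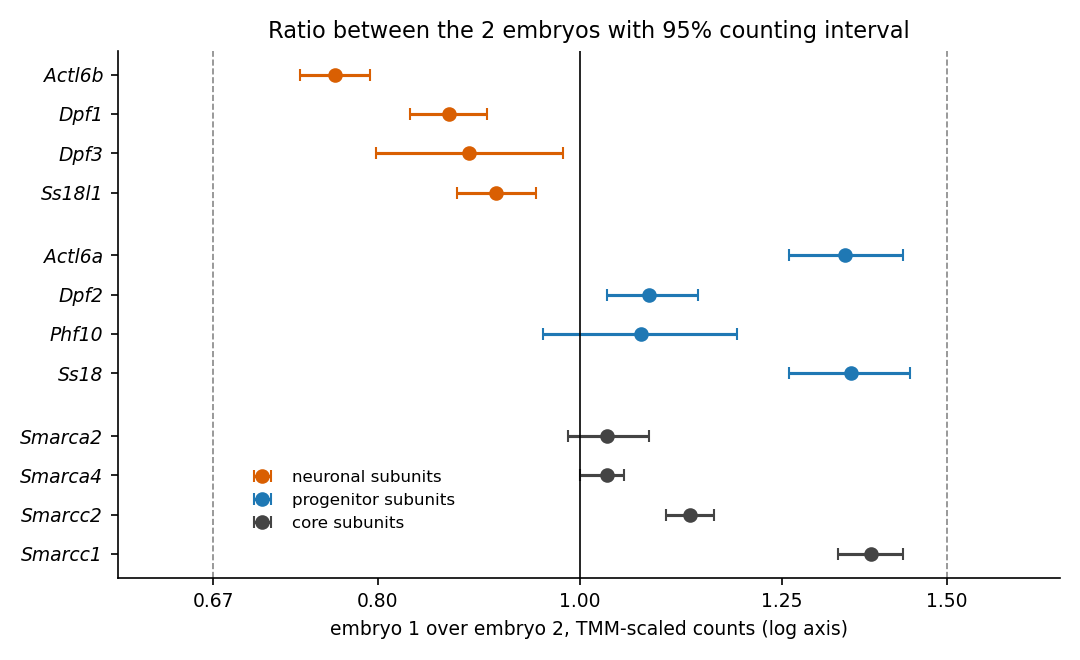
Embryo 1 over embryo 2 ratio of TMM-scaled counts (log axis) with the 95% counting interval for each gene, and dashed lines at 1.5-fold. All 4 neuronal genes lie left of 1 and all 4 progenitor genes right of 1, though on the ratio of deposited TPM Dpf3 and Ss18l1 lie right of 1 by 0.09 and 0.01 in log2, and Dpf1 is at -0.02.

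Among the cycling-cell, immature neuron and neural progenitor lists, only the cycling-cell genes all lay on the side of the progenitor subunits. All 10 cycling-cell genes were higher in embryo 1, 7 of them by 1.5-fold or more, with a median ratio of 1.74-fold and summed TPM of 424 in embryo 1 and 251 in embryo 2. Pcna (104 and 90.6 TPM) and Cdk1 (75.2 and 46.7 TPM) were the most abundant. On scaled counts, 7 of 10 immature neuron genes were higher in embryo 2 and 3 in embryo 1. Their summed TPM was 5479 in embryo 1 and 5811 in embryo 2. Of the 7, 1 was called, Stmn2 at 1.53-fold higher in embryo 2, which is named here after its value was seen. Tubb3 had 1638 and 1586 TPM and Gap43 1150 and 1376 TPM. The side of this list depended on the scale. Among the 7, Tubb3, Elavl4 (284 and 264 TPM) and Ina (491 and 472 TPM) had the higher TPM in embryo 1. Of the 3, Nefl and Map2 were at 0.00 in log2 on scaled counts. Of 8 neural progenitor genes, 5 were higher in embryo 1 and 3 in embryo 2 on scaled counts, with a median log2 ratio of 0.06. Their sums were 1989 and 2090 TPM, with Fabp7 (1214 and 1511 TPM) and Vim (502 and 346 TPM) the highest. The part of these markers in the BAF ratios was not tested.

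Markers of non-neural cell types were also higher in embryo 1. All 7 mesenchyme and meninges markers were called higher there, with summed TPM of 402 in embryo 1 and 10.0 in embryo 2, led by Col3a1 (187 and 2.81 TPM) and Col1a2 (71.2 and 1.90 TPM). All 5 endothelial markers (sums 122 and 78.9 TPM, led by Cldn5 at 70.8 and 56.9 and Kdr at 21.6 and 7.18) and all 6 microglia and macrophage markers (sums 100 and 38.0 TPM, led by C1qb at 32.2 and 14.9 and Lyz2 at 26.5 and 4.03) were higher in embryo 1. All 7 erythroid markers were higher in embryo 1 too, with sums of 9889 and 6451 TPM, Hba-a2 (4274 and 2858 TPM) and Hbb-bs (2031 and 1444 TPM) leading. None of the markers in these 4 lists was at 0 in either library, and their part in the BAF ratios was not tested. The 4 muscle markers summed to 1.61 TPM in embryo 1 and 0.690 TPM in embryo 2, with Ttn (0.730 and 0.360 TPM) and Actc1 (0.720 and 0.190 TPM) highest and Myod1 at 0 in embryo 2.

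**Figure D5:**
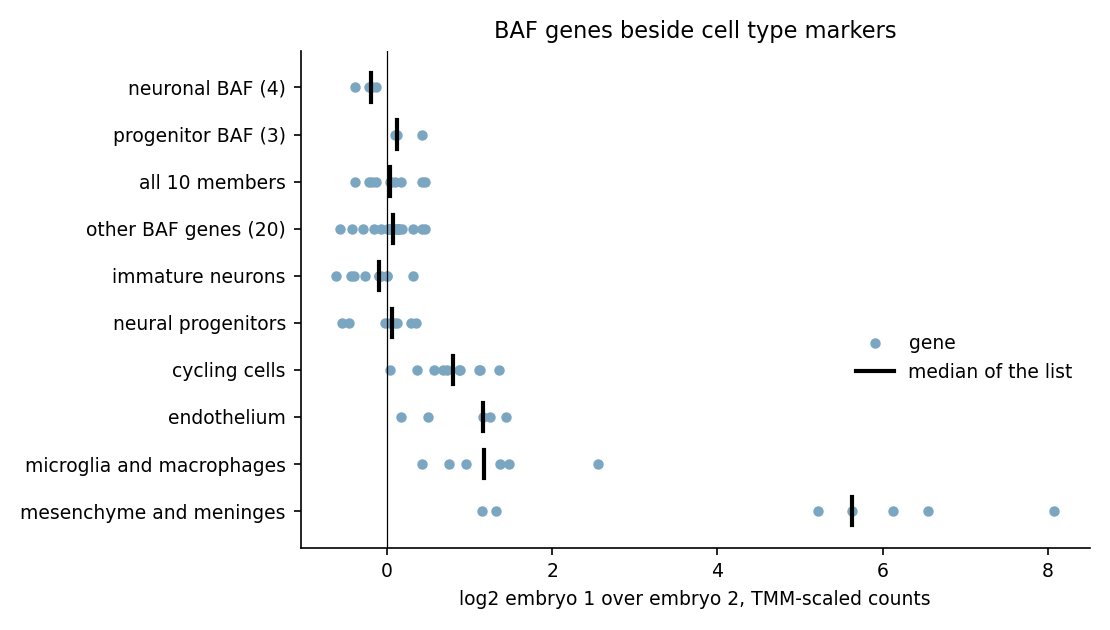
Log2 ratio of TMM-scaled counts, embryo 1 over embryo 2 (x axis), for each gene of the BAF lists and of cell type marker lists, with a black bar at the median of each list. The 10 members have a median of 0.04, the cycling-cell genes of 0.80 and the mesenchyme and meninges genes of 5.63.

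Of 20 further BAF genes, Dpf2 and Ss18 among them, all 20 were detected and 0 were called in either direction, against 8.56% and 5.66% of all genes tested. Their median level was 39.0 TPM, and on scaled counts 15 were higher in embryo 1 and 5 in embryo 2, with a median log2 ratio of 0.07. The most abundant were Smarcb1, a core subunit, with 228 and 217 TPM (222 ± 7.71), and Smarce1, an HMG-box DNA-binding subunit, with 138 and 173 TPM (156 ± 24.4). Smarcd3 had 126 and 153 TPM (139 ± 19.5) and Smarcd1 107 and 95.6 TPM (101 ± 8.34). On scaled counts Smarce1 was 1.48-fold higher in embryo 2 (1.42 to 1.54) and Smarcd3 1.34-fold (1.28 to 1.40), both on the same side as the 4 neuronal members. The least abundant were Bicra (7.21 and 4.75 TPM) and Bicral (8.59 and 6.99 TPM), which are paralogous subunits of the non-canonical complex, and Smarcd2 (11.4 and 7.84 TPM).

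The genes of the circuit that controls the subunit exchange were all detected. Rest, the repressor of neuronal genes, had 6.73 TPM in embryo 1 and 4.35 TPM in embryo 2 and was 1.40-fold higher in embryo 1 on scaled counts (1.26 to 1.56). Its corepressors Rcor1 and Rcor2 had 6.16 and 5.17 TPM and 18.9 and 21.1 TPM in embryos 1 and 2. Mir124a-1hg, a host gene of miR-124, had 56.1 and 62.3 TPM and was 1.34-fold higher in embryo 2 (1.27 to 1.42), while Mir124-2hg had 135 and 131 TPM, with a ratio of 1.01 for embryo 2 over embryo 1 (0.981 to 1.05). Rest and Mir124a-1hg thus lay on opposite sides, and Mir124-2hg had an interval that holds 1.

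The host genes of miR-9 were expressed at 51.5 and 46.3 TPM for Mir9-3hg, 48.0 and 48.4 TPM for C130071C03Rik, which holds Mir9-2, and 206 and 197 TPM for Gm3764 in embryos 1 and 2. On scaled counts C130071C03Rik was 1.10-fold higher in embryo 2 (1.04 to 1.17) and Gm3764 1.09-fold (1.03 to 1.15). Mir9-3hg was 1.07-fold higher there (0.984 to 1.16), an interval that holds 1. Gm3764 was identified as the host of Mir9-1 by coordinates and was added after its values were seen. RNA longer than 200 nt was sequenced, so these values are of the host transcripts and not of mature microRNAs. Ptbp1, the splicing repressor of progenitors that miR-124 targets, had 56.2 and 35.9 TPM, and its neuronal paralogue Ptbp2 had 212 and 155 TPM. Both were higher in embryo 1, Ptbp1 1.26-fold (1.19 to 1.34) and Ptbp2 1.24-fold (1.21 to 1.27).

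The ATPases of other remodelling complexes were set beside the BAF ATPases. ACTL6A is known as a subunit of some of these complexes too, among them those of SRCAP, INO80 and EP400. All 12 were detected and the highest were Srcap (70.2 and 60.4 TPM, 65.3 ± 6.89) and Chd4 (74.1 and 55.4 TPM, 64.7 ± 13.2), both below Smarca4 at 135 ± 11.9 and below the whole-gene level of Smarca2 at 120 ± 0.997. On its coding transcripts alone Smarca2 had 71.8 and 61.1 TPM in embryos 1 and 2, close to the whole-gene levels of Srcap and Chd4. Its full-length Smarca2-201 lay below both of these whole-gene levels. Coding transcripts of Srcap and Chd4 were not taken apart, so a part of Smarca2 is set here against whole genes. Smarca5, an ISWI ATPase, was the 1 gene of 12 called, where 8.56% of all genes tested were called higher in embryo 1, with 59.5 TPM in embryo 1 and 31.9 TPM in embryo 2, a ratio of scaled counts of 1.56 (1.49 to 1.64). Of the 12, 10 were higher in embryo 1 and 2 in embryo 2, against 6923 and 7088 of all genes tested. Their median log2 ratio of embryo 1 over embryo 2 was 0.27, and that of the 3 progenitor subunits was 0.12.

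The promoters of 11 of the 12 genes named above as members or progenitor partners were in the RefSeq table, as 300-base windows with 250 bases before and 50 after the start that RefSeq gives. For Smarcc1 and Actl6a the whole window lies inside the gene as GENCODE M21 spans it. For Smarca2, Dpf2, Dpf1, Actl6b and Phf10 the start also lies inside that span, but the window reaches beyond its edge. The GC content of the 11 windows ran from 55.3% for Dpf3 to 87.0% for Phf10, against a median of 52.7% over 32851 promoters. The letters CCAAT, on either strand, were found 3 times in Actl6b, 3 times in Dpf3, 2 times in Dpf1 and 1 time in Dpf2, and not in the windows of Ss18l1, Actl6a, Phf10, Smarca2, Smarca4, Smarcc2 or Smarcc1. At least 1 CCAAT was present in 37.4% of all promoters in the table. The GC box letters GGGCGG were in 10 of the 11 windows, all but Dpf2, and in 35.7% of all promoters. Of the half-sites bound by REST, TTCAGCACC was in none of the 11 windows and in 0.371% of all promoters, and GGACAGC was in Actl6b and Smarcc2 and in 6.56% of all promoters. No match of one motif overlapped a match of another, and overlapping GC boxes were counted in Actl6b, Phf10 and Ss18l1. A match is a description of the sequence and not a site.

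The windows of Actl6b and Dpf3, neuronal subunits with 3 CCAAT matches each, and of Actl6a, with none, are shown with CCAAT and GC boxes of either strand in capitals. They lie at chr5:137553296-137553595 on the plus strand, chr12:83487687-83487986 on the minus strand and chr3:32708296-32708595 on the plus strand of GRCm38.p6.
Actl6b promoter: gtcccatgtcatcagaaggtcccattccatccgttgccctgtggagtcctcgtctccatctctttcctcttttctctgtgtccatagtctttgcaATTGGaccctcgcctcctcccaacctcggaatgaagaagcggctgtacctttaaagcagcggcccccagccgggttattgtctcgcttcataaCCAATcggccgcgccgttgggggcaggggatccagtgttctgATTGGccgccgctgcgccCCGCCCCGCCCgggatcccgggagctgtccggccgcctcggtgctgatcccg
Dpf3 promoter: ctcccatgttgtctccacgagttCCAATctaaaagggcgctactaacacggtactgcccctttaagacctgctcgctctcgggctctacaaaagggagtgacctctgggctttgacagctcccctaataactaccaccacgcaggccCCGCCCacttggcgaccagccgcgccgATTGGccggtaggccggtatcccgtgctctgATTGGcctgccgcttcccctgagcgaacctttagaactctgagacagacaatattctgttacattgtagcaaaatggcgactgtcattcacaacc
Actl6a promoter: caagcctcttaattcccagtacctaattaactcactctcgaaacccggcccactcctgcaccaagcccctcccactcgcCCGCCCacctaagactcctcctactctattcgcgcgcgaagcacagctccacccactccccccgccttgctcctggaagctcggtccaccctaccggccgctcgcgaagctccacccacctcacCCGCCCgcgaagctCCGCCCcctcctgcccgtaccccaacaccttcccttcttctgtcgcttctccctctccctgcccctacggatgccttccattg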

How the data were processed

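Total RNA libraries of midbrain from 2 embryos, 1 group, were analysed from the gene and transcript tables the authors deposited, made on mm10 with GENCODE M4 per the text record deposited with them. No source used here names the quantifier. The deposited expected counts are estimated reads per gene or transcript and need not be whole. TPM and FPKM were computed by the authors per transcript length, with spike-ins in the scale, at a depth of 32716141 counts in embryo 1 and 30185472 in embryo 2. Posterior mean TPM and FPKM served as alternatives.

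GENCODE M21, also on this assembly (GRCm38) but later, gave symbols and coordinates for 98.0% of Ensembl rows. Numeric and phiX rows held 6 and 14 counts and, with the ERCC spike-ins, control RNAs added to each library (3.15% and 3.32% of counts), stayed out of the scaling. No test was possible, so levels are means ± SD over 2 embryos. Embryo ratios used TMM factors from edgeR 4.0.16 (R 4.3.3) with a prior count of 0.5, and intervals at 95% come from the exact binomial distribution (scipy 1.17.1). These intervals hold counting error alone, and reads counted without molecular identifiers need not come from separate molecules. A gene was called at 1.5-fold with at least 100 summed counts. The ratio code was tested on simulated data. DESeq2 1.42.0 size factors were an alternative scaling.

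The members and gene lists were chosen with earlier results of these data known. Named always were the members, Dpf2, Ss18 and the regulators of the exchange. Of the other lists the text names the most abundant genes (for further BAF genes also the 3 lowest), any called BAF or remodelling gene, and transcripts with at least 10% of a gene's TPM.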

Additional observations from a re-analysis of the deposited data

How the results depend on the processing

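The direction of every neuronal over progenitor ratio, and of Smarca2 over Smarca4 and Smarcc2 over Smarcc1, was the same under all 66 alternatives run on them. Of these, 8 moved a ratio by more than the SD between embryos. Many of the others could not have done so. FPKM and counts per kilobase of effective length give the same ratio as TPM by construction. Leaving out 1 of 2 embryos always moves the mean by less than that SD, and a pseudocount of 1 cannot turn a direction. For the summed groups the mean log2 ratio was 1.38. It was 1.96 with protein-coding transcripts alone and 2.34 without Dpf2, and between 1.15 and 1.61 with either embryo left out. For Actl6b over Actl6a the values with either embryo left out were 1.19 and 1.96. With protein-coding transcripts alone, Dpf3 over Phf10 was 2.35 in place of 0.30, Dpf1 over Dpf2 1.62, Dpf3 over Dpf2 -1.10 and Smarca2 over Smarca4 -1.03. All 10 members were detected under every setting run on that count.

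The ratio between embryos depended on the scale. The median log2 ratio of all genes tested was -0.01 on TMM, 0.11 on the spike-in total and 0.13 on deposited TPM. On deposited TPM 1 member, Smarcc1 (log2 ratio 0.61), and 1 further BAF gene, Bicra, passed 1.5-fold in embryo 1, and 0 did under the other scalings. On the spike-in total the neuronal genes stayed below 0, at -0.28 for Actl6b, -0.10 for Dpf1, -0.06 for Dpf3 and -0.02 for Ss18l1. Of 72 alternatives for the embryo ratios of single genes, 20 left the counting interval. By expected count in place of TPM, transcript shares shifted toward long transcripts, by construction. A ratio between embryos cannot be had with 1 embryo left out. No paired analysis was possible because the series has 1 group.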
